A study of Mus musculus with 4 samples.

Results

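The genes of ISG15 conjugation and the IFIT genes, 8 in all (Isg15, Usp18, Uba7, Ube2l6, Herc6, Ifit1, Ifit2 and Ifit3), were followed across 4 lines of mouse embryonic fibroblasts (MEFs). The members were chosen by their function in the interferon response, and with their values on these same arrays already known, so that their differences between knockout (KO) and wildtype (WT) lines are given as a description, with an error but without a p-value. The platform annotation listed 12 probes for 7 of the 8 genes, out of 25697 probes and 16593 genes on the array; Herc6 had no listed probe and was not analysed here. A probe was tested where it was detected on at least 2 of the 4 arrays, which held for 11 of the 12 probes and 6 of the 7 genes, among 11552 probes and 8047 genes tested in all.

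Total RNA was measured on Illumina MouseRef-8 bead arrays, 1 array per MEF line. The KO lines, KO1 and KO2, were H3f3b -/- and the WT lines, WT1 and WT2, were H3f3b WT/WT; the numbers are the replicate numbers of the labels. H3f3b is 1 of the 2 genes that encode the replacement histone H3.3, and its null allele came from floxed mice crossed to Zp3Cre mice, whose Cre is driven by an oocyte promoter, followed by crosses of heterozygotes. Each line came from a single C57BL6J embryo taken at E12.5, without the head and the visceral organs, all 4 embryos were littermates, and all 4 lines carried the same stable pBabe puro vector. A line is therefore 1 embryo and 1 culture, and a difference between 2 lines may belong to the embryo, the culture or the vector transduction as well as to the genotype; with 2 lines per genotype these cannot be told apart.

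ISG15 is a small ubiquitin-like protein that cells make in response to type I interferon and attach to other proteins. Uba7 encodes its activating enzyme (E1), Ube2l6 its conjugating enzyme (E2) and Herc6 the main ligase (E3) in mouse, while Usp18 encodes the protease that removes ISG15 and that also damps signalling at the interferon receptor. The IFIT proteins are RNA-binding proteins with tetratricopeptide repeats that hold back the translation of viral RNA, and their genes lie next to each other on mouse chromosome 19. Both groups are switched on by transcription factors downstream of the interferon receptor, STAT2 and IRF9 among them, that act at the interferon-stimulated response element (ISRE) in their promoters.

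Promoter sequences from RefSeq (build GRCm38.p6, 250 bases before to 50 after each transcription start) were given for 7 of the 8 genes, in 8 windows; Usp18 was not among them. They were searched on both strands for an ISRE core, here GAAA, any 2 bases, and GAAA again. Of the 7 genes, 3 held at least 1 match, namely Isg15, Ifit1 and Ifit3, against 3.99% of the 27025 genes with a promoter window, and 18 of 40 (45.0%) in a list of other interferon-stimulated genes. On the arrays the probes of Isg15 and Ifit3 were high in 1 WT line and the single Ifit1 probe was detected in none. The matched stretches of these 3 genes are shown because of this difference. They are written 5′ to 3′ in the direction of transcription with the matches in capitals, and lie at chr4:156200855-156200916 (minus strand) for Isg15, chr19:34640765-34640833 (plus strand) for Ifit1 and chr19:34583353-34583436 (plus strand) for Ifit3.
Isg15: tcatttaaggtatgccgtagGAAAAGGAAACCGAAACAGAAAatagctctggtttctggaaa
Ifit1: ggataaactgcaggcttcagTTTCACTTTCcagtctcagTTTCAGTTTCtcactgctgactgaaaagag
Ifit3: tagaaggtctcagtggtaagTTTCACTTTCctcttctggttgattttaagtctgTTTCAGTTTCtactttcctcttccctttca
Isg15 held 3 overlapping matches on the coding strand, the first beginning 78 bases before the start. Ifit1 and Ifit3 each held 2 separate matches on the opposite strand, and their first matches began 104 and 156 bases before the start. A match is a stretch of letters and not a measured binding site, and the windows of Uba7, Ube2l6, Ifit2 and Herc6 without one show only that these letters are not in them.

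The arrays differed in brightness by genotype, with mean signals of 381 and 382 in KO1 and KO2 and of 291 and 294 in WT1 and WT2, so that signals as deposited cannot be compared between genotypes without scaling, and log2 values after background correction and quantile normalization were used for all differences. The targeted gene followed the labels: H3f3b had signals of 97.3 and 98.7 in KO1 and KO2, neither called detected, and of 1736 and 1686 in WT1 and WT2. All 11 fibroblast markers with a probe were detected on all 4 arrays. Macrophage markers were detected as well, 10 of 12 on 3 arrays and 9 of 12 on WT2, although Ptprc and Itgam were detected on none, and 0 of 7 lymphoid and plasmacytoid markers were detected on any array.

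Isg15, the modifier itself, had the widest range of the members. Its single probe was detected on all arrays, with signals of 414 in KO1, 223 in KO2, 427 in WT1 and 2546 in WT2, or 8.17, 6.92, 8.74 and 11.53 on the normalized log2 scale. WT2 was thus far above the other lines, and KO1 was closer to WT1 than to KO2. The mean level was 7.54 ± 0.88 in KO and 10.13 ± 1.97 in WT (log2, SD, n = 2 each), and the fitted difference of KO minus WT was -2.59 ± 0.84 log2 units (SE), a level 6.02-fold higher in WT. WT2 alone was 6.91-fold above WT1, and KO1 was 2.37-fold above KO2.

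Usp18, the protease that removes ISG15, was read by 3 probes that all put WT2 far above the other lines. The brightest probe had signals of 279 in KO1, 187 in KO2, 346 in WT1 and 1170 in WT2. On the normalized scale these were 7.40, 6.50, 8.35 and 10.36, so that no KO line reached a WT line and WT2 stood apart once more. The other probes had signals of 224, 163, 220 and 822, and of 151, 142, 134 and 542, in the order KO1, KO2, WT1, WT2. WT2 exceeded WT1 by 4.03-fold, 5.09-fold and 7.54-fold with the 3 probes, and the fitted differences of KO minus WT were -2.41 ± 0.62, -2.11 ± 0.69 and -1.89 ± 0.81 log2 units (SE).

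The conjugating enzymes differed much less than the modifier and its protease. Uba7, the E1, had signals of 263 in KO1, 199 in KO2, 213 in WT1 and 254 in WT2, which became 7.27, 6.66, 7.40 and 7.75 log2 units after normalization. Its KO and WT lines overlapped in the deposited signals and no longer did so after quantile normalization, where the difference was -0.61 ± 0.25 (SE). Ube2l6, the E2, was near the background, with signals of 147 in KO1, 117 in KO2, 104 in WT1 and 147 in WT2. Its normalized values of 5.76, 4.95, 5.28 and 6.43 overlapped between genotypes, the difference of -0.50 ± 0.41 was little larger than its SE, and without WT2 it turned to 0.08.

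The probes of the 3 IFIT genes gave 3 different pictures, although the genes are neighbours on the chromosome. Ifit3 had 3 probes, all detected on all arrays, and the brightest had signals of 332 in KO1, 287 in KO2, 374 in WT1 and 1401 in WT2. Its normalized values were 7.74, 7.47, 8.49 and 10.61, with both KO lines under both WT lines and WT2 far above WT1. The dimmer probes had signals of 151, 150, 155 and 390, and of 164, 145, 145 and 411, in the order KO1, KO2, WT1, WT2. The 3 probes gave differences of KO minus WT of -1.94 ± 0.60, -1.74 ± 0.55 and -1.61 ± 0.63 log2 units (SE) and put WT2 above WT1 by 4.33-fold, 3.80-fold and 4.64-fold. Ifit3b, a near-identical neighbour of Ifit3, had no listed probe, and whether these probes also read its transcript was not tested.

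Ifit2 was detected in all 4 lines at similar levels. Its brighter probe had signals of 218 in KO1, 190 in KO2, 188 in WT1 and 182 in WT2, and normalized values of 6.86, 6.54, 7.11 and 7.01, a difference of KO minus WT of -0.36 ± 0.19 (SE) with WT2 slightly below WT1. Its dimmer probe had signals of 130, 128, 101 and 128, and there WT2 was 1.82-fold above WT1 and the difference was -0.24 ± 0.29, so that the 2 probes did not tell the same order of the WT lines. Ifit1 was not detected on any array, with signals of 94.5 in KO1, 87.5 in KO2, 75.3 in WT1 and 79.3 in WT2 and detection p-values from 0.866 to 0.976. WT2, where Ifit3 was high, was among the arrays without detected Ifit1, and no difference is given for this gene. Ifit1 was read by 1 probe alone, so that an unexpressed gene and a probe that does not work cannot be told apart.

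**Figure D1:**
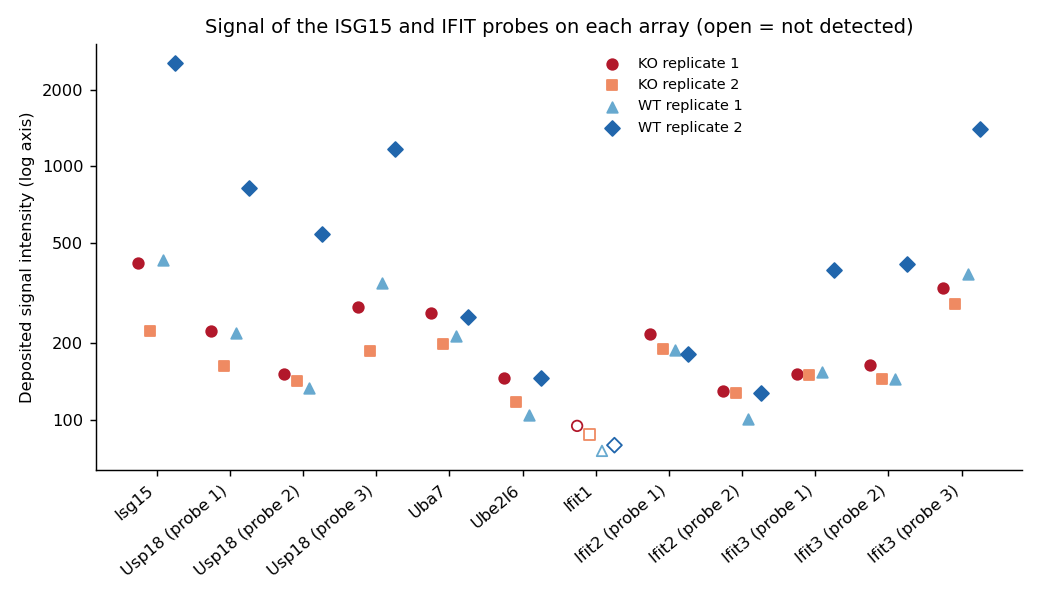
Deposited signal intensity (log axis) of each of the 12 probes for Isg15, Usp18, Uba7, Ube2l6 and the IFIT genes on the 2 KO and 2 WT arrays; filled symbols were detected (detection p under 0.05) and open symbols were not. WT2 stands alone at 2546 for Isg15, at 542 to 1170 for the Usp18 probes and at 390 to 1401 for the Ifit3 probes. The deposited signals of the lines lie closer together for Uba7, Ube2l6 and Ifit2. These signals still hold the background. After normalization WT2 was 2.22-fold above WT1 for Ube2l6 and 1.82-fold for the dimmer Ifit2 probe.

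Over the 6 genes tested, KO was lower than WT in 6 of 6, where 47.6% of all 8047 genes were lower. The median difference was -1.27 log2 units, and the median over all genes was 0.01. Isg15, Usp18 and Ifit3 were at least 2-fold lower in KO, as were 0.497% of all genes, and ranked 3, 4 and 6 from the lowest among them. Both KO lines were under both WT lines in 5 of the 6 (Ube2l6 was the exception), against 17.1% of all genes. With median scaling in place of quantile normalization this held for 3 of the 6 and for 4.35% of all genes, since Uba7 and Ifit2 then overlapped between genotypes. None of the 6 passed an adjusted p of 0.05 in limma, a threshold passed by 0.0124% of all genes, which is H3f3b alone. At an unadjusted p under 0.05, 4 of the 6 were lower in KO (Isg15, Usp18, Uba7 and Ifit3), against 3.54% of all genes. With a variance trend and robust estimation in limma the last count was 1 (Uba7), against 3.93% of all genes. The rule that chose these genes used this contrast, and nothing is read from these counts.

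The size of the difference depended on WT2. Without this line the difference of KO minus WT was -1.20 for Isg15, -1.40 for Usp18 and -0.89 for Ifit3, and the median over the 6 genes was -0.66. Without WT1 the same 3 values were -3.98, -3.41 and -3.0 and the median was -2.04. In the comparison with WT1 alone, 2 of the 6 (Isg15 and Usp18) were at least 2-fold lower in KO, against 0.534% of all genes, and both KO lines were under WT1 in 5 of the 6, against 33.1% of all genes; 0 of the 6 passed an adjusted p of 0.05 in limma (0.0124% of all genes) and 3 were lower in KO at an unadjusted p under 0.05 (4.93% of all genes). In the comparison with WT2 alone, Isg15, Usp18 and Ifit3 passed an adjusted p of 0.05 in limma, as 0.385% of all genes did, but WT2 is the line in which these genes were highest. The count of genes under WT1 takes Ifit2 by its brighter probe, and with the dimmer probe both KO lines were above WT1. The fits with WT1 alone and with WT2 alone use the contrast with which the genes were chosen. Nothing is read from their counts either. In both of these fits the lone WT line is assumed to vary as the KO lines do.

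**Figure D2:**
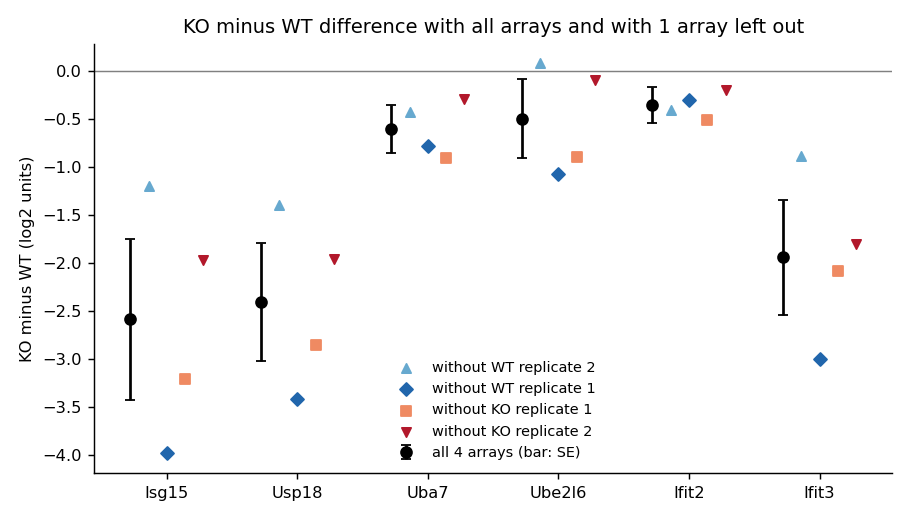
Difference of KO minus WT in log2 units for the 6 genes tested, with all 4 arrays (black, bars are the SE of the fit) and with each array left out in turn. For Isg15 the value is -2.59 with all arrays, -1.20 without WT2 and -3.98 without WT1, and the values of Uba7, Ube2l6 and Ifit2 lie between -1.07 and 0.08 in every fit.

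The spread within each genotype was then described gene by gene. The difference of WT2 minus WT1 was 2.79 log2 units for Isg15, 2.11 for Ifit3, 2.01 for Usp18, 1.15 for Ube2l6, 0.35 for Uba7 and -0.11 for Ifit2. These values and the counts and ranks below use the brightest probe of each gene. The dimmer Ifit2 probe gave 0.86, with WT2 the highest line. Among all 8047 genes Isg15 had the largest increase from WT1 to WT2, Ifit3 ranked 3 and Usp18 ranked 5, and the places between them were held by Oasl2 (2.37) and Gbp3 (2.10), which are interferon-stimulated genes as well. Isg15 kept the first place, and Ifit3 and Usp18 stayed among the first 5 genes, with each of the other background corrections and scalings tried. WT2 was at least 2-fold above WT1 for 4 of the 6 genes, against 0.833% of all genes, and was the highest of the 4 lines for 5 of the 6, against 29.0% of all genes. The median absolute gap between the WT lines was 1.58 log2 units over the 6 genes and 0.24 over all genes. With 1 array per line, these gaps have no replicate check.

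Between the KO lines the gap was narrower than between the WT lines for Isg15, Usp18, Ube2l6 and Ifit3 and wider for Uba7 and Ifit2. The difference of KO2 minus KO1 was -1.24 log2 units for Isg15, -0.90 for Usp18, -0.81 for Ube2l6, -0.61 for Uba7, -0.32 for Ifit2 and -0.28 for Ifit3. By the brightest probe of each gene, KO2 was the lowest of the 4 lines for 6 of 6 genes, against 21.7% of all genes. With the dimmer Ifit2 probe WT1 was the lowest. With a dimmer Ifit3 probe KO1 (5.86) was slightly under KO2 (5.88). Isg15 was the only one of the 6 at least 2-fold lower in KO2 than in KO1, against 0.211% of all genes. The median absolute gap between the KO lines was 0.71 over the 6 genes and 0.17 over all genes. The order of the lines from KO2 over KO1 and WT1 to WT2 was held by Isg15, Usp18, Ifit3 and Uba7. This was 4 of 6, against 5.28% of all genes, again by the brightest probes. It did not hold with the dimmer Ifit3 probe in which KO1 was under KO2. In Isg15, Usp18 and Ifit3 the widest step was the last one, from WT1 to WT2.

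**Figure D3:**
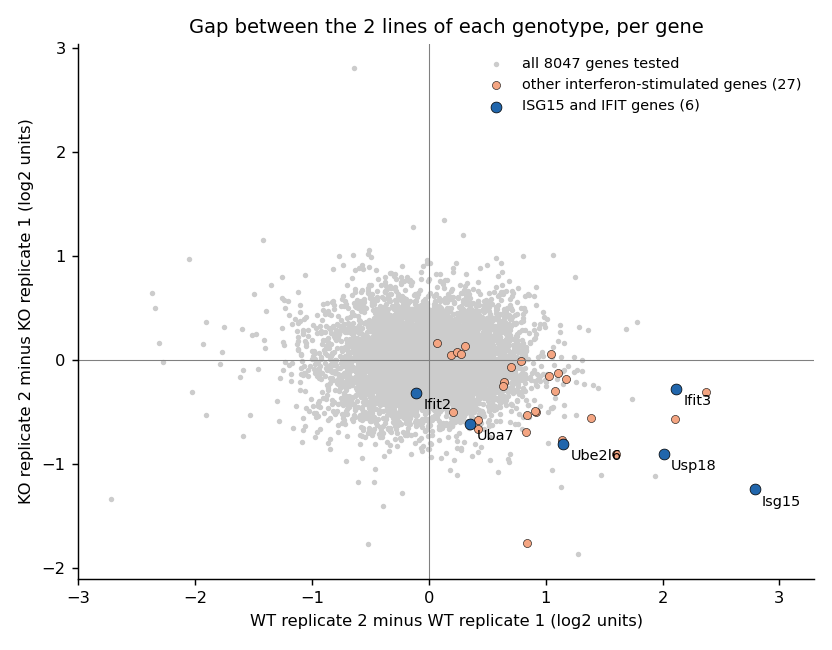
Each point is a gene, with the difference between the WT lines (WT2 minus WT1, log2 units) on the horizontal axis and that between the KO lines (KO2 minus KO1, log2 units) on the vertical axis, for the 8047 genes tested, the 27 other interferon-stimulated genes and the 6 ISG15 and IFIT genes. Isg15 lies at the far right (2.79) and below zero (-1.24), and Ifit2, shown by its brighter probe, lies inside the cloud of all genes.

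The genes that carry the interferon signal were compared over a list of 11 receptor and signalling genes, of which 10 had a probe and 6 were tested. Stat2 and Irf9, which encode factors that act at the ISRE, were lower in KO by -1.33 ± 0.27 and -0.85 ± 0.28 log2 units (SE). Stat2 had normalized values of 5.45 in KO1, 5.32 in KO2, 6.32 in WT1 and 7.11 in WT2, and Irf9 of 7.82, 7.49, 8.13 and 8.89, so that for both genes the KO lines were under the WT lines and WT2 was the highest. The transcription factors Irf1 (-0.27 ± 0.17) and Irf3 (-0.19 ± 0.18), the receptor-bound kinase Tyk2 (0.09 ± 0.18) and the receptor subunit Ifnar2 (0.10 ± 0.22) had differences near their SE. Irf7, the regulator of a second wave of interferon production, was detected in WT2 alone, with a signal of 105 close to background, and was not tested. The probes for Ifnar1, Jak1 and Socs1 were detected on no array. Over the list 4 of 6 genes were lower and 2 higher, where 47.6% of all genes were lower. In limma 0 passed an adjusted p of 0.05 (0.0124% of all genes). At an unadjusted p under 0.05 in limma, 2 were lower, against 3.54% of all genes. The list was chosen with earlier results of these data known, and nothing is read from its counts.

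Of a list of 12 genes of nucleic acid sensing and type I interferons, 10 had a matched probe, and Rigi and Sting1 had none. With these probes, neither the interferon genes of the list nor most of its sensors were measured above background. The probes for Ifnb1, Ifna1, Ifna2 and Ifna4, which encode type I interferons, were detected on no array, and neither were those for Ifih1, Tlr3 and Cgas. The RNA helicase gene Dhx58 was detected on all arrays, with normalized values of 5.31 in KO1, 4.85 in KO2, 4.91 in WT1 and 5.97 in WT2, again with WT2 the highest (-0.36 ± 0.35, KO minus WT). Zbp1, a sensor of nucleic acid in the Z form, was lower by -0.26 ± 0.18, and Mavs, the adaptor of the RNA sensors, was higher by 0.33 ± 0.21. Of the ISG15 ligases other than Herc6, the Trim25 probe was detected on no array and Arih1 had a difference of 0.10 ± 0.30.

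A wider list of 49 other interferon-stimulated genes, of which 45 had a probe and 27 were tested, was described in the same way. Of the 27, 25 were lower and 2 higher in KO, where 47.6% of all genes were lower. Both KO lines were under both WT lines in 15, against 17.1% of all genes. WT2 was the highest line in 25, against 29.0% of all genes. The order KO2, KO1, WT1, WT2 from the lowest was held by 12, against 5.28% of all genes. The median difference was -0.61 log2 units, against 0.01 over all genes, and -0.21 without WT2. The differences farthest from zero were those of the viral tether gene Bst2 (-1.98 ± 0.55), the 2-5 oligoadenylate synthetase-like gene Oasl2 (-1.93 ± 0.67) and the GTPase genes Igtp (-1.37 ± 0.44) and Gbp3 (-1.26 ± 0.61). Bst2 had normalized values of 7.66 in KO1, 5.90 in KO2, 8.34 in WT1 and 9.18 in WT2, with the wider gap between the KO lines, where Isg15, Usp18 and Ifit3 had it between the WT lines. In limma 0 of the 27 passed an adjusted p of 0.05 (0.0124% of all genes). At an unadjusted p under 0.05 in limma, 11 were lower, against 3.54% of all genes, and 0 were higher. This list too was chosen with earlier results of these data known, and nothing is read from its counts.

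**Figure D4:**
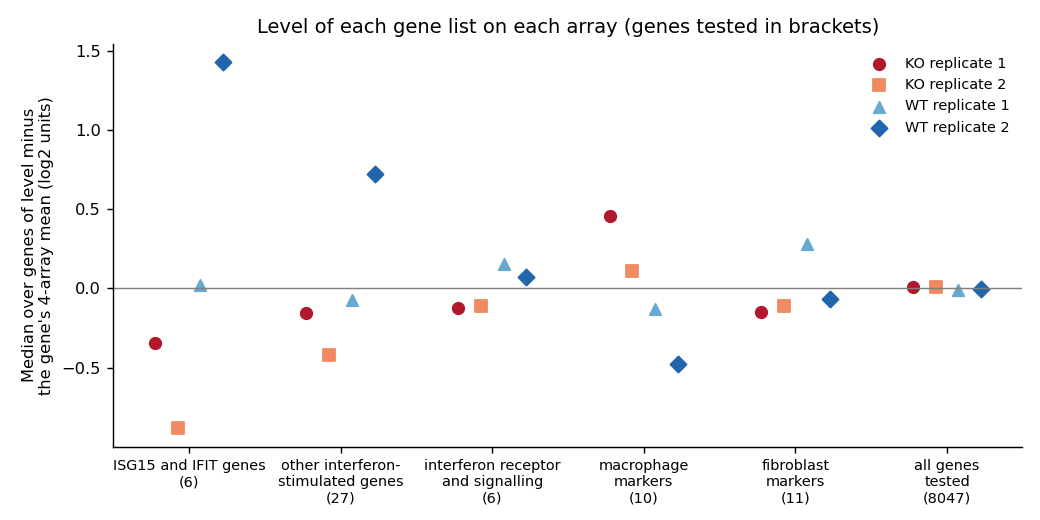
Median over the genes of each list of the level on an array minus the gene's mean over the 4 arrays (log2 units), for the 2 KO and 2 WT lines. The ISG15 and IFIT genes stand at 1.43 in WT2 and -0.88 in KO2, the other interferon-stimulated genes at 0.72 and -0.42, and all genes at -0.01 and 0.01; macrophage markers run the other way, at -0.48 in WT2 and 0.45 in KO1.

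The genes whose profile over the 4 lines was most like that of the members were found by the root mean square distance of their centred log2 values from the members' median profile, which was -0.35 in KO1, -0.88 in KO2, 0.02 in WT1 and 1.43 in WT2. The nearest 5 of the genes tested were the interferon-inducible GTPase gene Igtp (distance 0.06), Phf11d (0.15), the keratin gene Krt19 (0.16), the immediate early gene Egr2 (0.16) and the GTPase gene Gbp2 (0.18). Over 4 arrays such likeness is a description alone, and many unrelated profiles can lie close.

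Markers of other cell types moved with the lines too. Of 10 macrophage markers tested, 10 were higher in KO, with a median difference of 0.50, against 4213 of all 8047 genes. Among them were the complement genes C1qb (0.88 ± 0.25) and C1qc (0.81 ± 0.25), the signalling adaptor Tyrobp (0.76 ± 0.21) and the coreceptor Cd14 (0.58 ± 0.17). On the normalized scale the 10 macrophage markers had median levels of 0.45 in KO1, 0.11 in KO2, -0.13 in WT1 and -0.48 in WT2. These are relative to each gene's mean over the 4 lines. The lowest was in WT2, where Isg15, Usp18 and Ifit3 were highest. Of the 11 fibroblast markers, 10 had a lower mean in KO than in WT (median difference -0.28), against 47.6% of all genes. Their differences ran from -0.92 ± 0.20 for the collagen-binding proteoglycan gene Lum to 0.09, with some close to zero. Both KO lines were under both WT lines in 5 of the 11, against 17.1% of all genes. The list stood at -0.06 in WT2 and 0.28 in WT1 relative to the mean of the 4 lines. Of the endothelial markers Emcn was higher in KO (1.66 ± 0.36), and the other 5 were detected on no array. Emcn was detected in KO1, KO2 and WT1 but not in WT2, and its signals of 106.5 in WT1 and 93.1 in WT2 were near background. The part of the cell type markers in the differences of the ISG15 and IFIT genes was not tested. In bulk RNA fewer cells of a type and less RNA per cell cannot be told apart.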

How the data were processed

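Biotinylated cRNA was hybridized and bead-level data were combined per probe in GenomeStudio by the authors. The deposited signal intensity values carry no background correction and no scaling, and the authors gave a detection p-value for each, relative to the negative controls of its array. A deposited table of intensity values that the authors had scaled (1 factor per array, 0.883 to 1.16, to a shared mean of 337) served as an alternative. The number of arrays limits the precision.

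For the values given here, limma 3.58.1 (R 4.3.3) took the unscaled signals through normexp, with the background read from detection p-values and an offset of 16, then quantile normalization and log2. A probe was kept if its detection p was under 0.05 in 2 or more arrays. lmFit and eBayes gave two-sided tests with 2 residual degrees of freedom, to which the moderation added 4.86, and Benjamini-Hochberg adjustment ran over all 11552 probes. The probe with the highest mean stood for a gene. Of 25697 probes, 23978 matched 1 gene and 1719 none; older symbols were updated through the gene identifier. The genes named are the members, all tested genes of the signalling list, up to 4 of each other list by the size of the difference, and the 5 most alike in profile. Genes named only as not detected or not listed, and H3f3b, serve as checks. Members and lists were chosen with earlier results of these data known. The fit was tested on simulated data, with noise drawn independently for each probe and array. Such data hold no deviation that a line shares over several genes, so the test does not cover that case.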

Additional observations from a re-analysis of the deposited data

How the results depend on the processing

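The alternatives were no background correction (signals under 16 set to 16), an offset of 50, median scaling, the values as the authors scaled them, a fit of all probes whether detected or not, a stricter demand (detection p under 0.01 in each of the 4 arrays), the mean over probes, a variance trend with robust estimation, the replicate number as a block, and leaving out each array in turn. Of the 138 values recomputed, 134 stayed within the spread between replicates, or for counts within 1.5 times. Many of these had no room to move, so the count of 134 is not a measure of stability. The variance trend and the replicate block leave every fitted difference and every gap between lines as it was. The other detection demands left the difference of each member tested in the main fit unchanged where the gene was kept. The spread of a gene holds the gap between its lines within a genotype. Leaving out 1 line cannot move a gene's difference by more than that spread, so those values had to stay within it. Among them, Isg15 went from -2.59 to -1.20 without WT2, and Ube2l6 from -0.50 to 0.08, a change of sign. With median scaling, which moved the median of all genes to 0.28 log2 units, 3 of the 6 members had no overlap of the genotypes, and Ifit2 moved to -0.08, which is still under that median. Leaving out each array in turn gave a median difference over the members from -2.04 to -0.66, 5 to 6 members without overlap and 0 to 3 members past an adjusted p of 0.05 in limma; the 3 (Isg15, Usp18 and Ifit3) came without WT replicate 1, where 31 genes passed in place of 1. With the variance trend 20 genes passed in limma, with 0 members among them, and at an unadjusted p under 0.05 1 member (Uba7) was lower in KO, against 3.93% of all genes. The replicate numbers did not pair the lines (correlation of their deviations -0.04 over 11552 probes). With the replicate block, which cannot change the differences in this design, the median difference was again -1.27, and 0 members and 2 genes passed. The median over the members was -0.61 when undetected probes were fitted too, where Ifit1 enters, and -1.94 with the stricter demand, where Ube2l6 drops out. No slide was named in the labels or headers, so a slide block was not run. Signals near background, as for Ube2l6 and Ifit1, limit how small a difference can be seen.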
